A study of Drosophila melanogaster with 6 samples.

Results

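The regions described here are 334 isolated small peaks of trimethylated histone H3 lysine 27 (H3K27me3) in Drosophila melanogaster wing imaginal discs, out of 1709 peaks in the deposited list. They were selected on their width and spacing, as the peaks narrower than 3000 bp with no other peak of the list within 5000 bp on the same chromosome, measured edge to edge. The list comes from discs in which Act5C-GAL4 drove UASt-H3 K27R, a histone H3 with arginine at lysine 27 that served as the control for UASt-H3 K27M, with methionine there. Both genotypes carry Act5C-GAL4, which acts in most cells, and alphaTub84B-GAL80ts, a temperature-sensitive repressor of GAL4, and neither names a change to the fly's own histone genes. Larvae were kept at 25 °C, moved to 32 °C at 44 h after egg laying so that the transgene was expressed for 72 h, and dissected at 116 to 119 h with 20 discs per replicate. Each genotype had 2 H3K27me3 libraries and 1 IgG library made by CUT&RUN, a method in which an antibody guides a nuclease to cut out the chromatin that carries the mark. The peak list is attached by the labels to both H3K27R H3K27me3 libraries, so no value per replicate and no read depth was at hand, and the spread between replicates could not be measured. Every value below therefore describes a single list, and the intervals given cover counting error over peaks only.

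H3K27me3 is written by Polycomb repressive complex 2 and bound by Polycomb repressive complex 1. In flies it is best known as wide blocks over silent developmental regulators such as the Hox genes, which are nucleated at Polycomb response elements and spread from there. In a disc made of several regions and cell types, a weak patch can come from a low level in all cells or from a higher level in a minority, and a peak list cannot separate these.

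The isolated small peaks were numerous but covered little sequence. They made up 19.5% of the peaks and 2.12% of the summed peak length, 209.4 kb in all. The width ran from 177 bp to 2917 bp with a median of 418.5 bp, and 273 of the 334 were under 1000 bp. The narrowest was as narrow as any peak of the list, and 39 were under 200 bp. Small peaks beside other peaks, 937 in number, had a median width of 807 bp. The narrowest isolated ones, at 177 bp each, lay in CG15580, CG3328 and Gug, which encodes the transcriptional corepressor Atrophin. The widest lay between genes on 3L (8697752 to 8700668), over Ttc30 on 2L (2855 bp) and over CG3505 on 3R (2781 bp).

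Most of them were weak. The fold enrichment given by the authors' peak caller, relative to its background, ran from 1.76 to 6.70 with a median of 2.20, and the middle 50% lay between 2.05 and 2.37. The medians of the other classes were 2.30 for small peaks beside other peaks, 2.89 for peaks of 3 to 10 kb and 7.41 for peaks of 10 kb or more. These values come from the measurement that selected the members and are a description. Only 12 of 334 (3.59%) reached 3-fold, compared with 7.26% of the small peaks beside other peaks and 27.4% of all 1375 other peaks, which include the wide ones. The authors' −log10 q-value had a median of 2.27, and 128 members (38.3%) were under 2, against 25.4% of the small peaks beside other peaks and 17.4% of all other peaks. Within the isolated small peaks, width and fold enrichment had a Spearman rho of 0.06 (n = 334 peaks), and within small peaks beside other peaks it was 0.29 (n = 937 peaks). Across all other peaks, whose widths reach 215285 bp, it was 0.69 (n = 1375 peaks). The rule limits the width of the members, and all peaks share the same libraries, so the coefficients are descriptive and were not compared.

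**Figure D1:**
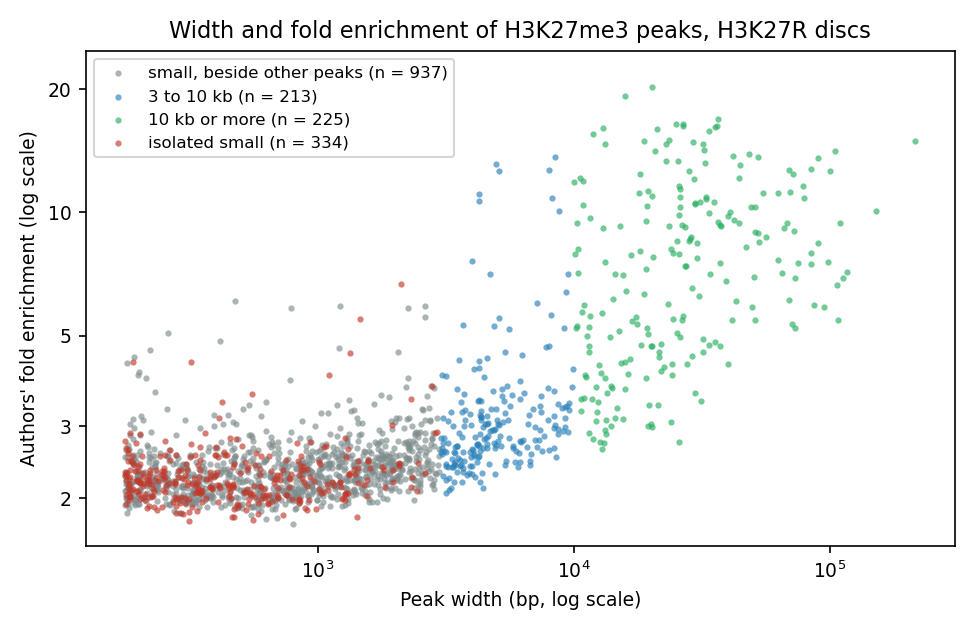
Width of each of the 1709 peaks in bp against the authors' fold enrichment, both on log scales, coloured by class. The 334 isolated small peaks form a flat band around their median of 2.20, with 12 at or above 3-fold.

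The limits of the rule cut through a continuous range. The widest members had folds of 2.91 and 2.89, and the narrowest isolated peaks past the width limit, of 3176 bp on 2L and 3502 bp over E(spl)m5-HLH on 3R, had 2.06 and 2.31. The least isolated members, one of them in sick, lay 5033 bp and 5055 bp from the next peak and had 2.16 and 2.13. A pair of peaks in CG44837 at 4999 bp from each other fell outside, with 2.01 and 2.19. Values on both sides of each limit overlapped the range of the members.

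Several of the strongest isolated small peaks lay outside annotated genes, some of them far from any. Of the 12 at or above 3-fold, 8 overlapped no annotated gene, while 87 of all 334 did so. The highest, at 6.70-fold (−log10 q 32.0), stood near the left end of 3L (19718 to 21835), 592 bp before mthl8, a gene of the Methuselah family of G protein-coupled receptors, and no annotated gene lay to its left. The next, at 5.48-fold, lay on 2L (20164378 to 20165838) between CG10651, 29454 bp away, and lncRNA:CR40341, 82200 bp away. A second member of the same interval (20207067 to 20207489) had 3.44-fold. On 2R, 4 members lay together in the long gene-free interval between Pld, a phospholipase D gene, and lncRNA:CR46075, at 91453 to 115756 bp from the nearest gene. Their folds were 2.73, 4.53, 4.31 and 2.23 from left to right, so the inner ones were the strong ones. A further 4.32-fold peak of only 190 bp lay on 2R (20070448 to 20070637) between lncRNA:CR46446, 3052 bp away, and lncRNA:CR46444, 3332 bp away.

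The remaining strong members lay beside or over annotated genes. On the X, a 2317 bp peak of 3.50-fold (2138401 to 2140717) filled most of the space between ph-p and D2hgdh, beginning 29 bp from ph-p and ending 771 bp before D2hgdh. ph-p encodes polyhomeotic, a subunit of Polycomb repressive complex 1, and was itself under 1 other peak of the list. On 2L, a 555 bp peak of 3.60-fold (358841 to 359395) lay 666 bp from asRNA:CR45366 and, on its other side, 18716 bp from al, the homeobox gene aristaless, and 6420 bp from a peak of 10 kb or more. Among those over genes, Jabba, whose product anchors histones to lipid droplets, carried 4.01-fold (2R 18758478 to 18759580). CG3505 carried 3.76-fold with no other peak for 310826 bp. egg, which encodes a histone H3 lysine 9 methyltransferase, carried 3.14-fold together with the overlapping asRNA:CR44067, and CG31262 carried 3.02-fold.

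Fold and q-value ranked the members almost alike (Spearman rho 0.94, n = 334 peaks), with a few exceptions. The exceptions named here were picked after their values were seen. A 1278 bp peak on 3R (30847829 to 30849106), 3208 bp from tll, the terminal gap gene tailless, had a fold of only 1.98 but a −log10 q-value of 89.4, the highest of all members. Among the 169 members of 1.8 to 2.2-fold the median −log10 q-value was 1.76, and below the peak near tll came 10.5, over alphaTub84B, and then 2.71. CG16717 (2.64-fold, −log10 q 27.3, on 3L with alphaTub67C directly beyond its right edge), nej, which encodes the H3 lysine 27 acetyltransferase CBP (2.35-fold, 12.1), sqh, the myosin regulatory light chain gene (2.66-fold, 9.57), and egg (3.14-fold, 16.1) also stood above the common line. A q-value depends on the number of reads in the peak and in the background as well as on the fold, and neither was at hand for these peaks, the one in egg included. Whether sequence present in several copies, such as a transgene, adds reads there was not tested. alphaTub84B supplies the promoter named in the GAL80ts transgene, and its peak (3R 7087715 to 7088062, 348 bp, 2.09-fold) lay inside the gene. Act5C, the other gene named in the genotype, had no peak. Of 12 genes named in the genotype or usual in such transgenes, 11 had no peak and only alphaTub84B was under a member. That is 8.33%, against 1.44% of all genes, and it rests on a single gene.

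**Figure D2:**
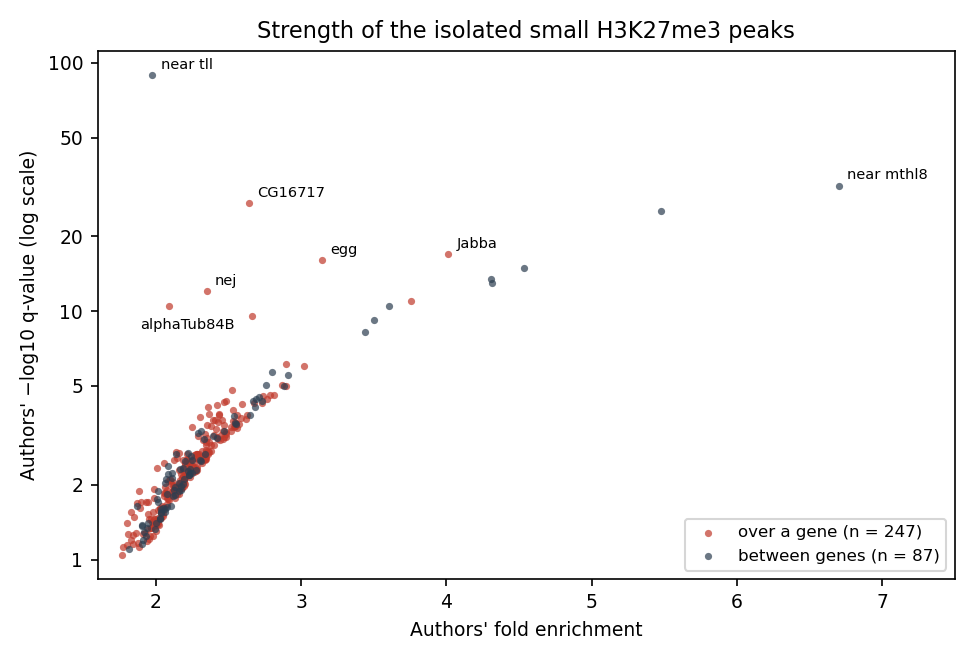
The authors' fold enrichment of each isolated small peak against the authors' −log10 q-value (log scale), coloured by whether the peak overlaps a gene. Most points follow a single curve, and the labelled peak near tll stands far above it at 1.98-fold and a −log10 q-value of 89.4.

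The members were spread over all 6 chromosome arms that carried peaks. There were 79 on 3R, 73 on 3L, 68 on 2L, 64 on 2R, 47 on the X and 3 on chromosome 4. Per Mb up to the last annotated gene of the arm, this was 2.46 on 3R, 2.61 on 3L, 2.90 on 2L, 2.53 on 2R, 2.00 on the X and 2.36 on chromosome 4, against 2.50 over all arms. The X held 14.1% of the members (95% exact interval 10.5 to 18.3%), 12.8% of all peaks and 17.6% of the arm length. Chromosome 4 had 40 peaks, and its 3 members were 7.50% of them, while the share on the other arms ran from 17.6% to 21.5%. The median fold by arm lay between 2.06 on chromosome 4 and 2.26 on 3L, a narrower range than the middle 50% of the members.

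**Figure D3:**
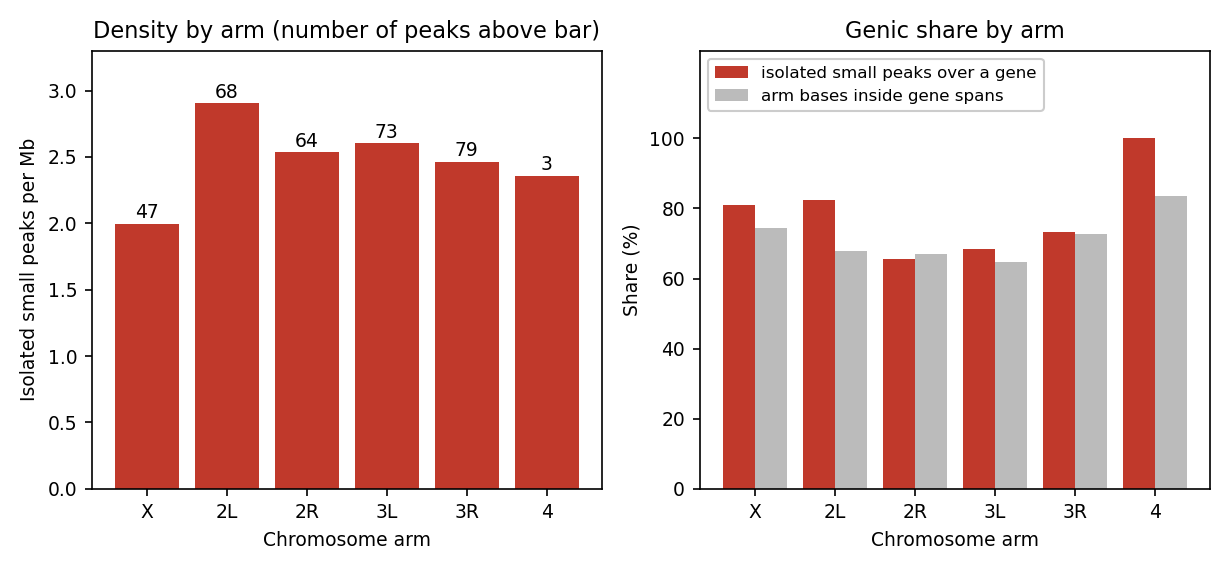
Left, isolated small peaks per Mb of each chromosome arm, with their number above each bar; right, the share of these peaks over a gene beside the share of the arm's bases that lie inside gene spans. Densities run from 2.00 per Mb on the X to 2.90 on 2L, and the genic share runs from 65.6% on 2R to 100% of only 3 peaks on chromosome 4.

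Most isolated small peaks lay inside genes, at about the share of the genome that genes occupy. Of the 334, 247 (74.0%, 95% exact interval 68.9 to 78.6%) overlapped a gene span by at least 1 bp, 238 of them a protein-coding one, and 223 lay wholly within a gene. By midpoint, which does not depend on width, 70.7% (65.5 to 75.5%) were inside a gene span, and 69.6% of the bases of the arms are. The midpoint shares of the other classes were 58.8% (55.6 to 62.0%) for small peaks beside other peaks, 54.0% (47.0 to 60.8%) for peaks of 3 to 10 kb and 52.9% (46.1 to 59.6%) for those of 10 kb or more. Neighbouring peaks are not independent, and the differences were not tested. Among the members 29 (8.68%, 5.89 to 12.2%) contained an end of a gene, and among small peaks beside other peaks 11.4% (9.45 to 13.6%) did. The share was 84.9% for peaks of 10 kb or more, which their width favours. By arm, 82.4% of members on 2L overlapped a gene, where genes span 68.0% of bases, and 65.6% on 2R, where they span 67.1%.

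The genic share was higher the farther a member stood from other peaks. Of 120 members 5 to 10 kb from the next peak, 61.7% (52.4 to 70.4%) overlapped a gene. The share was 74.8% (66.2 to 82.2%) of 123 members at 10 to 50 kb and 89.0% (80.7 to 94.6%) of 91 members at 50 kb or more. By midpoint, the shares were 56.7%, 74.8% and 83.5% in the same order, and the median widths were 508.5, 378 and 385 bp. Neighbouring members are not independent, while the intervals count each as separate, so they do not serve to compare the groups. The order was not tested. The median fold showed no such order, with 2.20, 2.18 and 2.21. Members at or above 3-fold numbered 7 of 120, 4 of 123 and 1 of 91 in the same groups, which was not tested. The distance itself had a median of 16679 bp, and 49 members had no other peak within 100 kb. The most isolated lay in dpy, 625757 bp from the next peak. It was followed by a pair on the X that are each other's neighbours at 424560 bp, in CG15221 and in Ir10a, an ionotropic chemoreceptor gene.

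**Figure D4:**
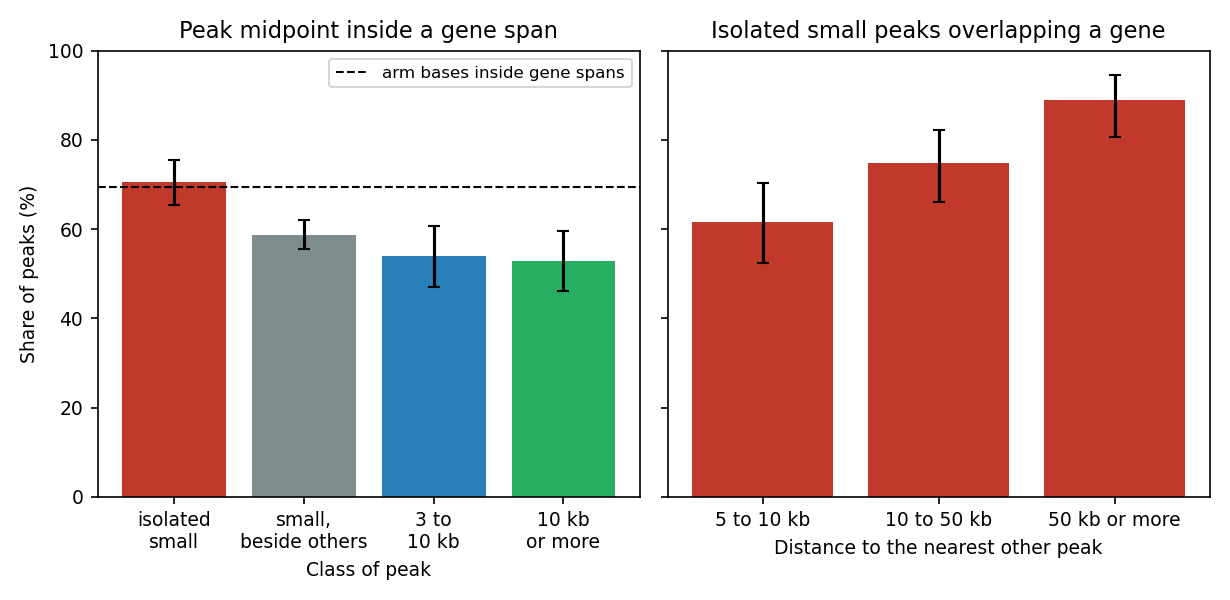
Left, the share of peaks whose midpoint lies inside a gene span in each class of peak, with the share of arm bases inside gene spans (69.6%) as a dashed line; right, the share of isolated small peaks that overlap a gene, by distance to the nearest other peak. Error bars are exact 95% intervals for counting error; isolated small peaks stand at 70.7% on the left and at 61.7%, 74.8% and 89.0% on the right.

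The genes under isolated small peaks were long, as are the genes that hold most of the genic bases. The members overlapped 254 different genes, 1.44% of the 17673 genes on the arms. They comprised 239 protein-coding genes, 11 for long non-coding RNAs and 4 for antisense RNAs. Their median length was 11685 bp against 1709 bp for all genes, and 130 (51.2%) were at least 10 kb long, compared with 11.5% of all genes. Among genes of at least 10 kb, 6.40% carried a member. For comparison, genes longer than 23804 bp hold 50% of all summed gene length, and the longest gene over each genic member had a median length of 17810 bp. Another peak also touched 36 of the 254 genes (14.2%), against 6.44% of all genes, and the part of length in this was not tested. For the remaining 218 genes (85.8%) the isolated small peaks were all the H3K27me3 the list gives.

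Several members within a single gene were seen in 20 genes, all of at least 18922 bp. The most were 4, in the overlapping genes Glut4EF, a transcription factor gene, and CG46467 on 3R, with folds of 1.99 to 2.56. CG32816 on the X held 3. The other 17 held 2 each. Those with no further peak were bnl, Eip78C, an ecdysone-induced nuclear receptor gene, Sb, the transmembrane serine protease gene Stubble, Lmpt, a LIM domain gene, smal and CG42663. In contrast, hth held 18 other peaks, CG32816 10, Glut4EF 8 and Dscam1 5. pk, the planar polarity gene prickle, carried peaks of 2.05 and 2.79-fold, and the POU factor gene pdm3 carried 1.80 and 2.04-fold. Over all 20 genes, the folds of these members ran from 1.80 to 2.81, the highest being over GluClalpha, a glutamate-gated chloride channel gene.

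Developmental regulators, the usual targets of the mark, were mostly under other peaks. The 6 lists of patterning, segmentation, neural fate, eye, muscle and Hox genes held 122 different genes, of which 100 (82.0%) overlapped another peak and 3 (2.46%) an isolated small one, against 6.44% and 1.44% of all genes. The 3 were hth, zfh2 and vnd, each of at least 10 kb. Among all genes of at least 10 kb, 6.40% carried a member, and the part of length in these counts was not tested. None of 8 Hox genes, 24 segmentation genes or 18 mesoderm and muscle factors overlapped a member, and 8, 18 and 13 of them overlapped other peaks. Of 34 wing disc patterning genes, hth and zfh2 did, both of them also under other peaks, and 30 more were under other peaks only. In hth, a homeobox gene of the proximal wing and antenna, members of 2.13 and 1.94-fold lay in gaps between its 18 other peaks. hth was also the single gene of 20 on the eye and antenna list. Of 27 neural fate genes, vnd, a homeobox gene of the ventral neural column, carried a 691 bp peak of 2.29-fold together with the overlapping spdi and had no other peak.

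Of 25 secreted ligand genes, 14 were under other peaks only, and Wnt4 and bnl carried isolated small peaks alone. Wnt4, a Wnt ligand gene, had a 235 bp peak of 1.87-fold (2L 7275329 to 7275563). bnl encodes the FGF ligand that guides tracheal branching, and it carried 2.27 and 1.95-fold in peaks of 244 and 585 bp (3R 19797176 to 19797419 and 19820165 to 19820749). The remaining 9 ligand genes had no peak. The 2 of 25 are 8%, against 1.44% of all genes and 6.40% of genes of at least 10 kb, and Wnt4 (21753 bp) and bnl (42745 bp) are among the 10 ligand genes of that length.

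Of 30 genes of neuronal adhesion and guidance, 4 (13.3%) carried a member, against 1.44% of all genes and 6.40% of genes of at least 10 kb. This list is one of long genes, 27 of 30 being at least 10 kb, and the part of length in the count was not tested. Dscam1, an immunoglobulin receptor that gives neurons their identity, carried 2.05 and 2.10-fold, and CadN, the N-cadherin gene, 2.13-fold, and both also had other peaks. kirre, an adhesion gene of myoblast fusion with a span of 394149 bp, carried a single 847 bp peak of 2.28-fold and nothing else. kek1, which encodes an inhibitor of the EGF receptor, carried 1559 bp at 2.21-fold. Of 32 dpr and DIP genes, another immunoglobulin family of synaptic partners, dpr3 carried members of 2.56 and 2.45-fold. Of 39 ion channel and neurotransmitter receptor genes, Nmdar2, a subunit gene of NMDA receptors, carried 2.35-fold.

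Single genes were met in most families of sensory, cuticle and detoxification genes. They were Gr59d of 60 gustatory receptors (1.93-fold), Ir10a of 66 ionotropic receptors (2.47-fold), Obp83ef of 51 odorant binding proteins (2.28-fold) and Cpr92F of 70 Cpr cuticular proteins (2.26-fold). Osi7 of 23 Osiris genes carried 2.02-fold and Ugt37B1 of 35 Ugt genes 2.42-fold. These shares ran from 1.43% to 4.35%, against 1.44% of all genes, and each rests on a single gene. Of 16 testis genes, can, a testis-specific TAF, had 2.37-fold and wuc, a subunit of the testis meiotic arrest complex, 2.34-fold. Of 16 housekeeping genes, alphaTub84B and eEF1alpha1, the translation elongation factor gene (2R 11894472 to 11894811, 2.41-fold), were under members and none was under another peak. The share was 12.5% in the testis list and 12.5% in the housekeeping list, against 1.44% of all genes. Each rests on 2 genes of a short list, and neither was tested.

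No gene of the other lists overlapped a member. These were 20 Polycomb group, 18 trithorax group, 19 germline, 13 cell cycle and 9 cell death genes, the markers of adult muscle precursors (7), tracheal cells (6) and haemocytes (10), which can accompany the disc epithelium, 59 odorant receptor genes, 85 cytochrome P450 genes, 22 beat and side genes, 260 microRNA genes, 295 tRNA, 257 snoRNA, 32 snRNA and 92 ribosomal protein genes. Most of these lists are too small for a lower share than that of all genes to be detectable, and microRNA, tRNA, snoRNA and snRNA genes are short. Among RNA genes, 11 of 1944 long non-coding (0.57%) and 4 of 503 antisense genes (0.80%) were met, against 1.44% of all genes. Of the 1944 and the 503 genes, 50 and 5 were at least 10 kb long, and the part of length was not tested.

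The 87 members between genes lay a median of 3208 bp from the nearest gene, with 22 within 1000 bp and 15 farther than 10 kb. The nearest gene was protein-coding for 48 (55.2%) and a long non-coding RNA gene for 32 (36.8%). Among the 357 small peaks beside other peaks that overlapped no gene, these shares were 63.9% and 33.1%. Listed genes flanked 9 of the 87 members, and these were 7 different genes of the 346 on the symbol lists. How often listed genes flank other peaks is not given here, so the count cannot be set against a general share. The clearest group surrounded rpr on 3L, the pro-apoptotic gene reaper, which itself had no peak. A 220 bp peak of 2.31-fold lay 7360 bp to its left, and peaks of 2.47-fold (1562 bp) and 2.03-fold (642 bp) lay 850 bp and 11280 bp to its right. The related leucine-rich repeat genes trn and caps on 3L had no peak either and were flanked by members of 1.90-fold at 1749 bp and 2.12-fold at 2416 bp. hry, the segmentation gene hairy, stood 9388 bp from a member of 2.06-fold, and vvl, a POU factor of the tracheal list, 19753 bp from one of 2.23-fold. The others were ph-p and tll, given above. ph-p and vvl were each under 1 other peak, while hry and tll were under none.

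Isolated small peaks were often neighbours of each other. For 160 members the nearest peak was another member, for 105 a small peak beside others, for 29 a peak of 3 to 10 kb and for 40 a peak of 10 kb or more. Members were 19.5% of all peaks. The rule of isolation bears on these counts and on the runs below, because neighbouring peaks share the gap between them. The median distance to the nearest peak of 10 kb or more was 280590 bp, and 34 members (10.2%) lay within 20 kb of one. Small peaks beside others had a median of 75417 bp, and 32.8% of them lay within 20 kb, but the rule of isolation bears on this difference. In the order of peaks along the arms, 240 members stood next to at least 1 other member, and 94 stood alone. The longest run was 8 members on the X over 2548 kb. The densest runs of 5 were on 3R, over 55.7 kb near the right end of the arm (31474717 to 31530457), all between genes, and over 68.3 kb (19752468 to 19820749), across GluClalpha and bnl.

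Of the 148 genes the authors list as upregulated with H3K27M, 5 carried an isolated small peak, and of all 17673 genes 254 (1.44%) did. The sources used here do not say how the authors called these genes or against which group. The list held 148 of the 17673 genes (0.837%), and 5 of the 254 genes over members (1.97%) were on it. Of genes over another peak, 0.966% were listed, and of genes over no peak, 0.815%. Gene length moves with this: 1.87% of all genes of at least 10 kb were listed, and 4 of the 5 were that long. Its part in the count was not tested.

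The 5 genes were dpy, hiw, CG42260, CG2901 and zfh2, and all but zfh2 had no other peak. dpy encodes the giant apical matrix protein Dumpy that anchors the wing epithelium to the cuticle, and its 218 bp peak (2L 4612636 to 4612853, 2.21-fold) lay 1447 bp inside the 5′ end of the 136839 bp gene. hiw encodes a ubiquitin ligase of synapse growth, and its 626 bp peak (X 15016662 to 15017287, 2.04-fold) lay 46142 bp from the 5′ end of a 53293 bp span. CG42260 carried 181 bp at 2.59-fold, shared with asRNA:CR30267. CG2901 carried 265 bp at 2.62-fold (X 3829011 to 3829275), shared with ec, the gene echinus of eye development. zfh2, which lies on chromosome 4 and encodes a transcription factor with zinc fingers and homeodomains, carried members of 1785 bp at 2.38-fold and 584 bp at 1.83-fold beside 1 other peak. Members covered 0.16% to 7.91% of these genes. A further 3 listed genes lay within 5000 bp of a member that was their nearest peak: CG1628 at 1854 bp (2.87-fold, in CG43347), slam, a gene of embryonic cellularization, at 2809 bp (1.80-fold, in Nepl4), and CG43088 at 4584 bp (2.90-fold, in NetB, which encodes a netrin guidance cue). The share of all genes that lie so near a member is not given here. These 3 therefore cannot be set against a general share.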

How the data were processed

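CUT&RUN peaks from H3K27R wing discs were used as deposited. Per the submitters' processing notes, Bowtie2, MACS2 and the genome build dm6 were used; the sources used here give no versions, thresholds, background sample or pooling. The deposited list has no header; its layout gives the authors' fold enrichment and −log10 q-value, and an integer score and −log10 p-value that were not used. The smallest deposited −log10 q-value was 1.05. Depth is unknown, and no depth per sample can be given. Genes came from a RefSeq table of Release 6, the assembly that dm6 names, limited to 6 arms and 17673 genes; the table gives gene spans without exons or strands. All 148 intervals of the authors' upregulated list equalled exactly 1 gene span, and their strand is the authors'. Coordinates are 1-based. A gene was under a peak with at least 1 bp of overlap. Shares carry exact (Clopper-Pearson) 95% intervals. No test was run, since neither file holds replicates and the members were chosen from the measurement itself.

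The members and the 37 gene lists (20 by symbol, 17 by name pattern; 371 of 382 symbol entries matched) were chosen with earlier results of these data known. Named are the 10 highest members by fold and the other two at or above 3-fold, the extremes of width and isolation, those over or near upregulated genes and those over listed genes; genes with several members, flanking listed genes and q-value exceptions, and the joining of 6 regulator lists, were added after their values were seen. Functions were checked on simulated peaks. Tools were Python 3.11.15, pandas 2.3.3, SciPy 1.17.1 and matplotlib 3.10.9. Alternatives changed the width limit, the isolation distance, the q-value threshold and the overlap.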

Additional observations from a re-analysis of the deposited data

How the results depend on the processing

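No paired analysis was possible because the deposited files hold no value per replicate, so leaving out a replicate was not possible either. Of 30 alternatives over 5 results, 26 moved a count by less than 1.5 times or a value by less than its interval or spread. The number of members (334) was 566 with an isolation distance of 2000 bp and 214 with 10000 bp, which follows from the rule. With 10000 bp the share over a gene (74.0%) was 80.8%, beyond its counting interval; in the other alternatives it ran from 70.4% to 74.8%. The number of upregulated genes at members (5) was 8 when genes within 5000 bp of a peak were counted, and 4 to 6 otherwise. The wider distance takes in more genes of any kind, and the share of all genes within it is not given here. The median fold ran from 2.19 to 2.34 and the share on the X from 12.7% to 15.4%. With no depth or replicate values, how well the weakest peaks would recur could not be measured: 128 members had a −log10 q-value under 2.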

Other observations

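Several genes of signalling pathways active in the wing disc, on none of the fixed lists and picked here after their values were seen, carried an isolated small peak as well. Dad, the inhibitory Smad of Dpp signalling, carried 276 bp at 2.01-fold (3R 17058291 to 17058566). sty, which encodes the receptor tyrosine kinase antagonist Sprouty, carried 277 bp at 2.17-fold, and fz2, a Wingless receptor gene, 712 bp at 2.28-fold. Pvf3, a ligand gene of the PDGF and VEGF family, carried 487 bp at 1.91-fold. The kinase gene Raf carried 464 bp at 2.13-fold, shared with CG2854. Among transcription factor genes, bowl carried 1019 bp at 2.43-fold, nab, which encodes a cofactor, 1430 bp at 2.47-fold, apt 2339 bp at 2.25-fold, and kay, the Fos gene, 336 bp at 2.07-fold. All these values lie within the range of the members at large, and whether such genes are met more often than others was not tested.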
